A study of Mus musculus with 24 samples.

Results

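The 40 genes described here belong to the machinery by which a cell copies its DNA and divides. They were taken by gene symbol: a gene entered through the probe sets that the array annotation pairs with its symbol alone, and where several probe sets carried the symbol the one with the highest mean log2 signal stood for the gene. A probe set was found for 39 of the 40 genes, out of 18194 genes that have such a probe set on the array. The annotation used here lists none for *Ccnb1*, which is named only. All 39 passed the filter on low signals, 22 of them through liver and duodenum and 17 through the duodenum alone.

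Most cells of an adult mouse are out of the cell cycle, and the genes of DNA replication and mitosis are switched on only in cells that are about to divide. E2F factors switch on the replication genes in late G1 and S phase, and a later wave, driven through CHR and CCAAT elements of the promoters, switches on the genes of mitosis. In the duodenum division takes place in the crypts, whose progenitors renew the villus epithelium throughout life, whereas hepatocytes of an undamaged adult liver seldom divide. The genes are grouped below by role: 10 of replication licensing and the replication fork, 3 of deoxynucleotide supply, 4 that control G1 and S phase, 7 of mitotic entry, 7 of the spindle checkpoint and anaphase, and 8 of chromosomes, spindle and cytokinesis.

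Liver and duodenum of 12 male mice were hybridized to 24 Affymetrix Mouse Genome 430 2.0 arrays, 1 array per tissue and mouse. Each tissue had 4 groups of 3 mice, since the C57BL/6 (B6) and the DBA/2 (D2) strain each gave a wild-type and an *Hfe*-/- group. All were 7 weeks old, had free access to an iron-containing diet and were fasted before they were killed. The *Hfe*-/- mice carry the disrupted gene in every cell and were bred in the authors' facility, whereas the wild-type mice were purchased, so that genotype and origin cannot be told apart.

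The values are MAS5 signals, the brightness of a probe set on a linear scale, and each array had been scaled to a mean of 100 without its highest and lowest 2% of probe sets. The median signal of an array lay between 15.8 and 23.4, and a signal of 20 was taken as the lower limit for a measured level. The *Hfe* signal matched the labels in all groups, with means of 462 to 683 in wild-type and 78.7 to 91.4 in *Hfe*-/- liver, and of 89.4 to 99.2 and 22.3 to 36.3 in duodenum (n = 3 each). All 11 hepatocyte markers tested were higher in liver, and 12 of 14 villus enterocyte markers in B6 and 13 of 14 in D2 were higher in duodenum. Markers of pancreatic acinar cells varied over the duodenum samples: the mean log2 signal of 15 such genes was 8.99 to 12.9 on 10 arrays, and 6.00 and 7.25 in the D2 *Hfe*-/- mice 2 and 3. The arrays had been hybridized in 5 runs and on 2 fluidics stations, which only partly cross the groups, and the values that bear on this are given beside the results.

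The promoters show which elements the genes share, apart from how they were chosen. RefSeq gives a window of 250 bases before to 50 bases after the transcription start (assembly GRCm38.p6) for 33 of the 40 genes, including *Ccnb1*. The letters searched for on both strands were TTTCCCGC, TTTGGCGC and TTTCGCGC for E2F, TTTGAA and TTCGAA for the CHR, and CCAAT for the CCAAT element, and overlapping matches were each counted. An E2F match was found in 7 of 33 genes (21.2%), against 2.12% of 27025 genes with such a window and 3.81% of the 10443 with a probe set above the filter. CHR letters were found in 17 genes (51.5%), against 21.7% and 16.7%, and all 17 also held CCAAT (9.65% and 7.97% of the background genes hold both). The matches divided by role. Of the 15 genes of replication, nucleotide supply and G1 control, 6 held E2F letters and 3 held CHR and CCAAT, and of the 18 genes of mitosis 1 held E2F letters and 14 held CHR and CCAAT.

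5 windows are printed to show this division, 5′ to 3′ on the strand of the gene, with every match in capitals, where a match on the other strand reads as its reverse complement. *Mcm6*, a subunit of the replicative helicase (chr1:128359656-128359955, minus strand), has 3 E2F matches, a pair of them overlapping, and 2 CCAAT. *Cdk1*, the kinase that drives entry into mitosis (chr10:69352863-69353162, minus strand), has matches of every kind. *Ccnb2*, a cyclin that activates Cdk1 (chr9:70421505-70421804, minus strand), has 2 CHR and 3 CCAAT. *Ube2c*, the ubiquitin-conjugating enzyme of the anaphase-promoting complex (chr2:164769679-164769978, plus strand), has 1 CHR and 6 CCAAT. *Nusap1*, a microtubule-binding protein of the mitotic spindle (chr2:119618048-119618347, plus strand), is shown because it was the gene that differed in the D2 duodenum, and its window holds none of the letters.
Mcm6: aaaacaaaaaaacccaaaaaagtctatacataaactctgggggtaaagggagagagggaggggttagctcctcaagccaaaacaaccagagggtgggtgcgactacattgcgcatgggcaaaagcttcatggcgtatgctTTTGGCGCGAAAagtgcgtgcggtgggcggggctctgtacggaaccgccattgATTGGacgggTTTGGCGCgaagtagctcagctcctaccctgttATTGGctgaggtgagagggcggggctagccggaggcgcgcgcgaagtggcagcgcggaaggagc
Cdk1: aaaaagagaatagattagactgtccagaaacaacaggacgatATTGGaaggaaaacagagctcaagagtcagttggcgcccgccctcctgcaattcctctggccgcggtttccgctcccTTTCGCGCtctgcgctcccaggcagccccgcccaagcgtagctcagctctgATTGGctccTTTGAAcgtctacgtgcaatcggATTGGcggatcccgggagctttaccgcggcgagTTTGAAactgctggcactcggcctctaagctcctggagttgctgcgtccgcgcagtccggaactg
Ccnb2: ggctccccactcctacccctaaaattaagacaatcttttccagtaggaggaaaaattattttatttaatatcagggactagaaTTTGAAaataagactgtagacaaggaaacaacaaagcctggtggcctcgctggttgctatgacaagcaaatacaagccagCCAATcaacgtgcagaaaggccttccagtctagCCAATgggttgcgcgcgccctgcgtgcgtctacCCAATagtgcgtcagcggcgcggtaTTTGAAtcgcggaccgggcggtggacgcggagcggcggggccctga
Ube2c: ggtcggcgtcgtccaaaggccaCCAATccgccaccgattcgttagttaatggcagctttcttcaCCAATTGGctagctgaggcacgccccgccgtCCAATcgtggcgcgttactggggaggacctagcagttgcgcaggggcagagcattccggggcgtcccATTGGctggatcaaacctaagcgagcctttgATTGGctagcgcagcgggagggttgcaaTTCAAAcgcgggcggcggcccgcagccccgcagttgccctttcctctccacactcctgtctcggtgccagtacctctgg
Nusap1: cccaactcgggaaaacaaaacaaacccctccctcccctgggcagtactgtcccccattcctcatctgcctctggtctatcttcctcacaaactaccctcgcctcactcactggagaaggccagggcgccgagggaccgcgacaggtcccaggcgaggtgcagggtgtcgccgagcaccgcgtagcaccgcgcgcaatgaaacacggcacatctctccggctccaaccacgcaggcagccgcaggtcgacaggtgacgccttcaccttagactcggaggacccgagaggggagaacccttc
A match is a description of these letters and not a measured binding site.

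The first comparison asks in which tissue the genes are expressed, from wild-type mice alone. Most of the cell cycle genes measured in both tissues were higher in duodenum than in liver. Of the 22 genes whose probe sets passed the filter in both tissues, 19 were higher in the duodenum of B6 mice and 19 in that of D2 mice, and 0 were lower (limma, adjusted p of at most 0.01). Over all 28061 probe sets tested, 26.2% were higher in B6 and 26.2% in D2. These include probe sets that passed the filter in a single tissue, and no share over those that passed in both is given here. The median log2 difference of the 22 genes was 2.57 in B6 and 2.55 in D2, against 0.21 and 0.20 over all probe sets. The other 17 genes passed the filter only through the duodenum, so that the filter itself favoured a higher value there. Of them 14 were called in B6 and 13 in D2, which is given as a description. A bulk sample does not tell whether a lower signal came from fewer cells that express a gene or from less RNA per cell.

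**Figure D1:**
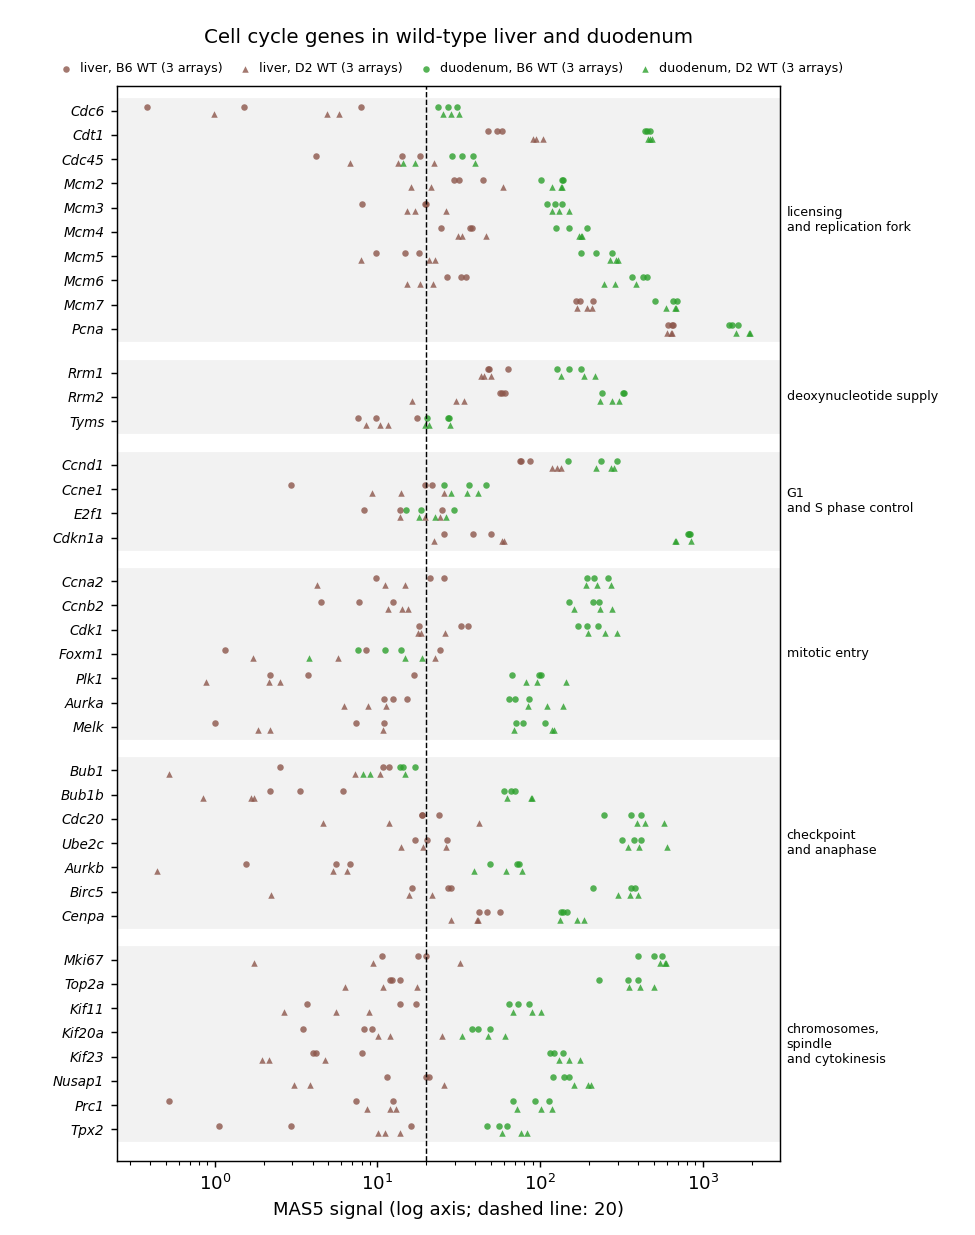
MAS5 signal (log axis) of each of the 39 cell cycle genes on the 6 wild-type liver arrays (brown) and the 6 wild-type duodenum arrays (green), with circles for B6 and triangles for D2, 1 point per mouse, in rows by role. The duodenum points lie to the right of the liver points for most genes, and most liver points of the genes of mitosis lie left of the dashed line at a signal of 20.

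Among the genes of replication licensing and the replication fork, 9 of 10 had passed the filter in both tissues, and 8 of these 9 were higher in the duodenum in either strain. *Pcna*, the sliding clamp of the DNA polymerases, was the best measured of them in liver, with signals of 613, 650 and 657 in B6 liver and 1521, 1657 and 1450 in B6 duodenum. In D2 mice it read 644, 599 and 637 in liver and 1948, 1920 and 1612 in duodenum. The tissues did not overlap, and the log2 difference was 1.27 in B6 (SE 0.08, adjusted p = 1.72e-11) and 1.54 in D2 (SE 0.08, adjusted p = 6.90e-13). *Mcm6* was 27.0, 32.7 and 35.2 in B6 liver and 369, 430 and 451 in B6 duodenum, a 13.2-fold difference of geometric means. *Mcm5*, another subunit of the same helicase, was below 20 on all 3 B6 liver arrays and lay between 179.5 and 278 in B6 duodenum, at least 11.1-fold higher when the liver is set to 20. *Cdc6*, which loads the helicase onto origins, passed the filter only through the duodenum, where it was 25.3 to 32.0 in D2 mice, and its values of 0.997 to 5.80 in D2 liver lay below the limit of measurement. *Cdc45*, which activates the helicase, was the exception in both strains: its signals lay between 14.3 and 40.1 in wild-type duodenum and between 4.22 and 22.3 in wild-type liver, and the differences did not pass the test (adjusted p = 0.0106 in B6 and 0.245 in D2).

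Of the genes of deoxynucleotide supply, both subunits of ribonucleotide reductase were higher in the duodenum. *Rrm2*, the subunit made in S phase, was 61.3, 57.0 and 58.5 in B6 liver and 242, 325 and 327 in B6 duodenum, a log2 difference of 2.33 (SE 0.27). In D2 mice it was 16.4, 34.3 and 30.3 in liver and 307, 278 and 232 in duodenum, a log2 difference of 3.39 (SE 0.27). The tissues did not overlap in either strain. *Tyms*, thymidylate synthase, stayed between 19.5 and 28.1 in wild-type duodenum, and its log2 differences of 1.17 and 1.16 did not pass (adjusted p = 0.0441 and 0.0468).

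Of the genes that control G1 and S phase, *Cdkn1a* and *Ccnd1* were higher in the duodenum in both strains. *Cdkn1a* encodes p21, an inhibitor of cyclin-dependent kinases, and restrains division. Its signals were 38.6, 50.2 and 25.7 in B6 liver and 806, 825 and 836 in B6 duodenum, which do not overlap, a 22.3-fold difference (log2 difference 4.48, SE 0.39, adjusted p = 2.35e-09). In D2 mice it was 58.3, 59.7 and 22.3 in liver and 848, 686 and 678 in duodenum, a 17.2-fold difference. *Ccnd1*, cyclin D1, was 74.9 to 86.3 in B6 liver and 149 to 297 in B6 duodenum (log2 difference 1.47, SE 0.22), and 119 to 135 and 219 to 285 in D2 mice (log2 difference 1.02, SE 0.22). *E2f1*, a transcription factor of the G1 to S transition, and *Ccne1*, cyclin E1, did not pass, although another probe set of *Ccne1* passed in D2 mice (37.1 on average in duodenum and 8.37, below the limit, in liver, adjusted p = 0.000363) and not in B6 (adjusted p = 0.0606). *E2f1* was between 8.28 and 29.7 on the 12 wild-type arrays, and its small positive difference turned negative under some settings given at the end.

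In liver most of the genes of mitosis were at or below the lower limit of measurement, so that their differences have no exact size. Of the 22 genes in these roles 7 had passed the filter in both tissues, 2 of mitotic entry, 4 of checkpoint and anaphase and 1 of chromosomes, spindle and cytokinesis, and all 7 were higher in the duodenum in either strain. The other 15 had passed through the duodenum alone (5, 3 and 7 by role), and of these 13 were called higher in B6 and 12 in D2. *Mki67*, the marker Ki-67 of cycling cells, was 19.9, 10.6 and 17.7 in B6 liver and 398, 561 and 498 in B6 duodenum, at least 24.04-fold higher. *Top2a*, the topoisomerase that untangles sister chromatids, was 13.8, 11.9 and 12.3 against 229, 403 and 347 in B6, at least 15.9-fold higher, and at least 20.9-fold higher in D2. *Ccnb2* was 12.4, 4.52 and 7.75 in B6 liver and 151, 230.3 and 212 in B6 duodenum, at least 9.74-fold higher, and at least 10.9-fold in D2. No liver value of these genes came near a duodenum value.

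The liver was below 20 on all 3 wild-type arrays for 19 genes in B6 and 15 in D2, so that the fold difference has only a bound, which could be set for 18 and 14 of them (*Bub1* was below 20 in both tissues). The bounds ran from 1.24-fold to 24.04-fold in B6 (median 3.94) and from 1.13-fold to 20.9-fold in D2 (median 4.88). With these genes set to their bounds, the median log2 difference of the 39 genes was 2.07 in B6 and 2.28 in D2. *Foxm1*, a transcription factor of the mitotic genes, and *Bub1*, a checkpoint kinase, did not differ by the test, and their chosen probe sets were below 20 on all wild-type duodenum arrays. Of the other probe sets of *Foxm1*, 1 passed in B6 alone and 1 in both strains (24.5 on average in B6 and 25.5 in D2 duodenum, with liver means below the limit, adjusted p = 0.00134 and 0.00384). Another probe set of *Bub1* with a higher mean linear signal read 53.2 on average in B6 duodenum and 1.42, below the limit, in B6 liver (adjusted p = 3.51e-05). These probe sets of *Foxm1* and *Bub1* had passed the filter through the duodenum alone, which favoured a higher value there. They are given as a description. Wild-type livers and duodena lay in different hybridization runs in both strains. With run as a block 22 of 39 genes were higher in B6 and 24 in D2, counting the 17 genes that passed the filter through the duodenum alone. The share of all probe sets with this block is not given here.

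Genes outside the list that act in the same processes followed the same direction in part. Of 42 other replication genes tested, 36 had passed the filter in both tissues, of which 17 were higher in the duodenum of B6 mice and 18 in that of D2 mice (2 and 3 were lower). Of 54 other genes of mitosis, 24 had passed in both, of which 17 and 18 were higher (2 and 1 were lower). Among 15 markers of crypt stem cells and progenitors, 11 had passed in both, of which 8 and 6 were higher (1 was lower in each strain).

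In the duodenum the next question is whether loss of *Hfe* alters these genes. In D2 mice nearly all of them had small negative differences in the knockout, and 1 passed the test. Negative differences were found for 35 of 39 genes, against 45.7% of all probe sets, and their median was -0.33 against 0.03 over all probe sets, on the log2 scale. At an adjusted p of at most 0.1, *Nusap1* was lower and 0 genes were higher, where 0.121% and 0.257% of all probe sets were called in these directions (0.378% in either). At an unadjusted p under 0.05, 16 genes were lower and 2 were higher, against 4.81% and 7.03% of all probe sets. For 14 genes all 3 knockout arrays lay below all 3 wild-type arrays (6.66% of all probe sets did so).

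*Nusap1* had signals of 205, 198 and 162 in wild-type D2 duodenum and of 110.5, 129 and 95.4 in *Hfe*-/- D2 duodenum. The groups did not overlap, and the log2 difference was -0.76 (SE 0.15, adjusted p = 0.0851). In B6 mice the gene was 120.3, 139.6 and 151 in the wild type and 149, 188 and 148 in the knockout, groups that overlap, with a log2 difference of 0.24 (SE 0.15, adjusted p = 0.880). The call rested on few arrays. It was lost when any 1 of 8 arrays was left out (B6 wild-type mice 2 and 3, B6 knockout mice 1 and 3, D2 wild-type mice 1 and 2, D2 knockout mice 2 and 3), with differences between -0.65 and -0.87 over all 12 omissions.

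Every role had a negative median in the D2 duodenum. The median log2 difference was -0.48 for mitotic entry, -0.45 for checkpoint and anaphase, -0.38 for deoxynucleotide supply, -0.29 for chromosomes, spindle and cytokinesis, -0.20 for licensing and the replication fork and -0.19 for G1 and S phase control. *Birc5*, survivin, a subunit of the chromosomal passenger complex, was 401, 356 and 299 in wild-type and 259, 213 and 168 in *Hfe*-/- mice (log2 difference -0.74, SE 0.22, adjusted p = 0.240). *Ube2c* was 601, 406 and 347 against 339.8, 316 and 229.7 (log2 difference -0.59, SE 0.20, adjusted p = 0.278). *Kif20a*, a kinesin of cytokinesis, was 60.5, 48.2 and 32.9 against 25.4, 31.9 and 20.7 (log2 difference -0.84, SE 0.28, adjusted p = 0.280). The groups did not overlap for any of these genes, and none of the differences passed the adjustment.

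Among the genes of replication and nucleotide supply the differences were of similar sign. *Mcm7*, a helicase subunit, was 687, 675 and 592 in wild-type and 525, 511 and 451 in *Hfe*-/- D2 duodenum (log2 difference -0.39, SE 0.12, adjusted p = 0.237), again without overlap. *Rrm1*, the large subunit of ribonucleotide reductase, was 217, 186 and 134 against 132, 129.7 and 106 (log2 difference -0.52, SE 0.19, adjusted p = 0.305). The 4 genes with a positive difference were *Cdc45*, *Tyms*, *Cdkn1a* and *Foxm1*. *Foxm1* was 18.8, 14.7 and 3.79 in the wild type and 35.1, 29.8 and 21.4 in the knockout, without overlap but close to the lower limit (log2 difference 1.47, SE 0.52, adjusted p = 0.301). Its other kept probe sets disagreed in the same comparison, at 0.98 and -0.19. *Cdkn1a* was 848, 686 and 678 against 840.3, 848 and 933, groups that overlap (log2 difference 0.25, SE 0.10, adjusted p = 0.359).

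**Figure D2:**
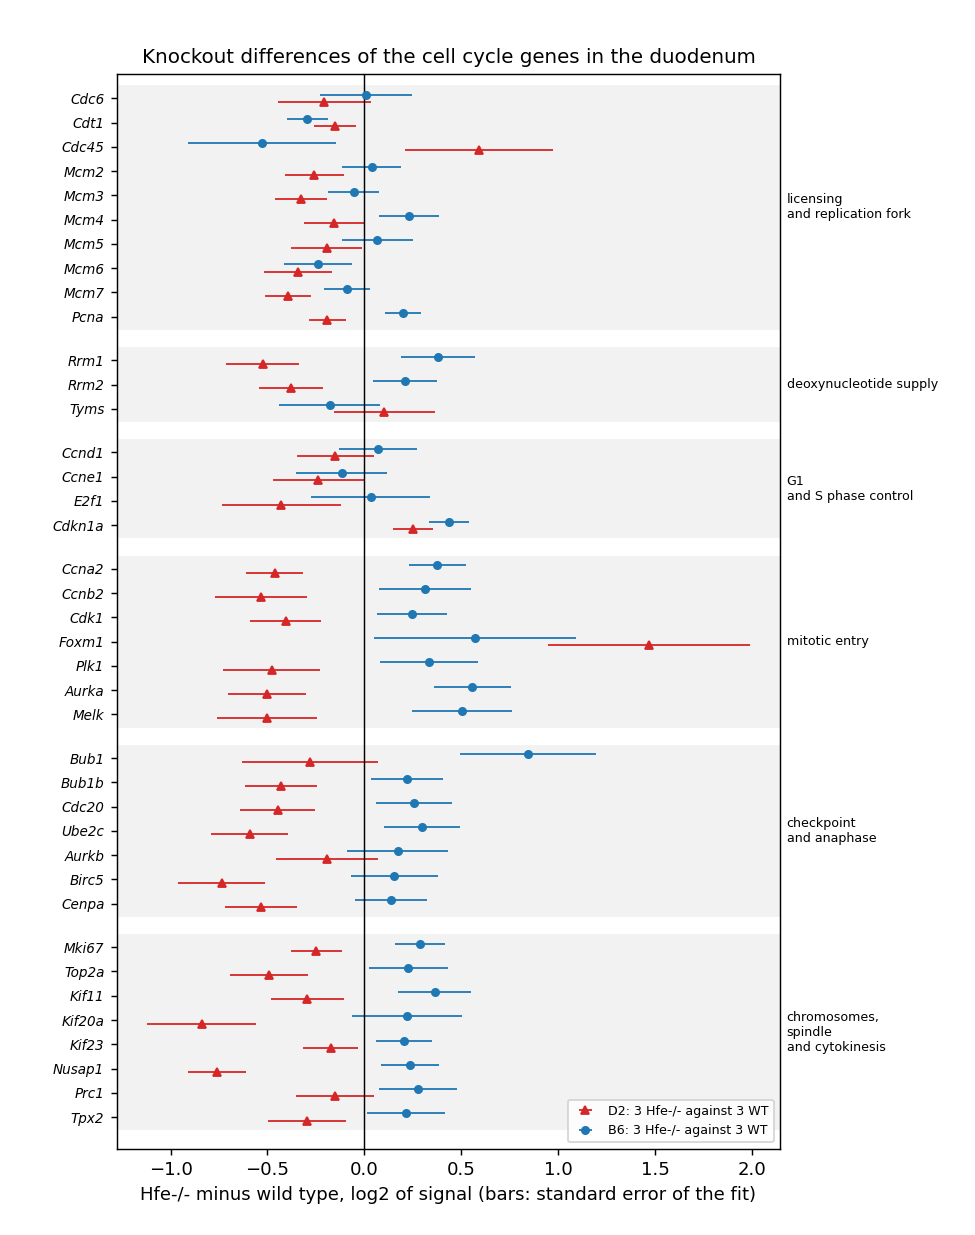
Log2 difference of *Hfe*-/- minus wild-type duodenum for each of the 39 cell cycle genes, in rows by role, with red triangles for D2 and blue circles for B6 mice (3 against 3 arrays each) and bars for the standard error of the fit. Most triangles lie left of 0 and most circles right of it, with *Nusap1* at -0.76 in D2 and 0.24 in B6.

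In the B6 duodenum the knockout differences pointed mostly the other way and were small. Positive differences were found for 32 of 39 genes, against 48.7% of all probe sets, with a median of 0.22 against -0.01. By limma 0 genes were called, where 0.0107% of all probe sets were called, and at an unadjusted p under 0.05 there were 5 higher and 1 lower (2.46% and 3.20% of all probe sets). All 22 genes of the 3 mitotic roles had positive differences, and in licensing and the replication fork 5 of 10 did. *Cdkn1a* was 806, 825 and 836 in the wild type and 1027, 1079 and 1242 in the knockout, without overlap (log2 difference 0.44, SE 0.10, adjusted p = 0.858). *Aurka*, a kinase of the spindle poles, was 64.2, 85.1 and 69.7 against 95.1, 136 and 94.2, also without overlap (log2 difference 0.56, SE 0.20, adjusted p = 0.873). *Cdt1*, which loads the replicative helicase together with Cdc6, was 455, 475 and 444 against 382, 404 and 338, lower without overlap (log2 difference -0.29, SE 0.11, adjusted p = 0.873).

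The difference between the strains was tested directly as the interaction, the D2 knockout effect minus the B6 effect. It was negative for 35 of 39 genes (46.3% of all probe sets), with a median of -0.51 against 0.04. By limma 0 genes were called (0.0143% of all probe sets), and 20 were lower and 0 higher at an unadjusted p under 0.05 (4.34% and 6.10% of all probe sets). The smallest adjusted p values were those of *Nusap1* (-0.997, SE 0.21, adjusted p = 0.221), of *Ccna2*, the cyclin of S and G2 phase (-0.84, SE 0.21, adjusted p = 0.269), and of *Aurka* (-1.06, SE 0.28, adjusted p = 0.306). *Ccna2* was 274, 223 and 192 in wild-type and 176, 166 and 153 in *Hfe*-/- D2 duodenum, and 196, 261 and 214 against 282, 322 and 263 in B6. With this probe set both strains were without overlap, in opposite directions. With the other kept probe set of *Ccna2* the B6 groups overlapped (log2 difference 0.22, adjusted p = 0.892). Its D2 difference was -0.50 (adjusted p = 0.280). For 30 of 39 genes (76.9%) the D2 difference was negative and the B6 difference positive, a pattern found in 24% of all probe sets, and the opposite pattern was found in 2 genes, *Cdc45* and *Tyms*. The other kept probe set of *Cdc45* was negative in D2 (-0.39) and positive in B6 (0.35). For *Nusap1* the interaction passed when D2 wild-type mouse 3 (adjusted p = 0.0978) or D2 knockout mouse 1 (adjusted p = 0.0972) was left out.

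The mean over the 39 genes on each array shows the spread behind these shifts. Relative to the mean of the 12 duodenum arrays, on the log2 scale, it was 0.23, 0.13 and -0.11 in wild-type and -0.10, -0.14 and -0.35 in *Hfe*-/- D2 mice. In B6 mice it was -0.24, 0.14 and -0.01 in the wild type and 0.14, 0.30 and 0.01 in the knockout. The genotypes overlapped in both strains. All D2 duodena were hybridized in the same run, but wild-type mice 1 and 2 on another fluidics station than wild-type mouse 3 and the knockouts. Within the shared station, 3 knockouts against 1 wild-type mouse, the median difference was -0.14, against 0.01 over all probe sets. There 32 of 39 genes were negative, all measured against that 1 wild-type array. With run and station as a block *Nusap1* was at -0.55 (SE 0.21, adjusted p = 0.567) and *Foxm1* was called higher, at 2.89 (adjusted p = 0.0689). With that block both differences equal those to D2 wild-type mouse 3 alone, in which *Foxm1* read 3.79, below the lower limit. In B6 mice knockout mouse 1 shared a run with the wild type, and there the median was 0.16, against 0.03 over all probe sets. With this 1 knockout array 31 of 39 genes were positive.

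Other tissue components also differed between the D2 groups. The 15 acinar genes all had negative differences in the D2 knockout (median -2.79, 0 called), with mean log2 signals of 10.7 to 12.1 in the wild type and of 12.9, 6.00 and 7.25 in the knockout. The differences were also negative for all 7 Paneth cell markers tested (median -1.36, 0 called), for 5 of 6 markers of B and germinal centre cells (median -0.69, 0 called), and for all 11 T and NK cell markers (median -0.58), of which *Ccr9* passed (-1.64, adjusted p = 0.0808). By the mean log2 signal of these 3 lists, knockout mouse 1 lay within the wild-type range and knockout mice 2 and 3 below it. Paneth markers read 10.05, 8.10 and 7.97 in the knockout against 10.27, 9.79 and 9.52 in the wild type. B and germinal centre markers read 5.58, 4.46 and 4.165 against 4.79, 5.67 and 5.15, and T and NK markers 6.72, 5.78 and 6.09 against 6.87, 6.445 and 7.12. Markers of crypt stem cells and of villus enterocytes had medians of 0.01 and -0.05. Without D2 knockout mice 2 and 3, the 2 arrays low in acinar genes, the median of the cell cycle genes was -0.24 with 33 of 39 negative, and *Nusap1* was at -0.76 on the 1 knockout array left. With the acinar mean as a covariate the median was -0.33. In the B6 knockout all 15 acinar genes had positive differences (median 1.21, 0 called). The covariate held the acinar genes alone, and the part of these components in the shifts was not tested.

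**Figure D3:**
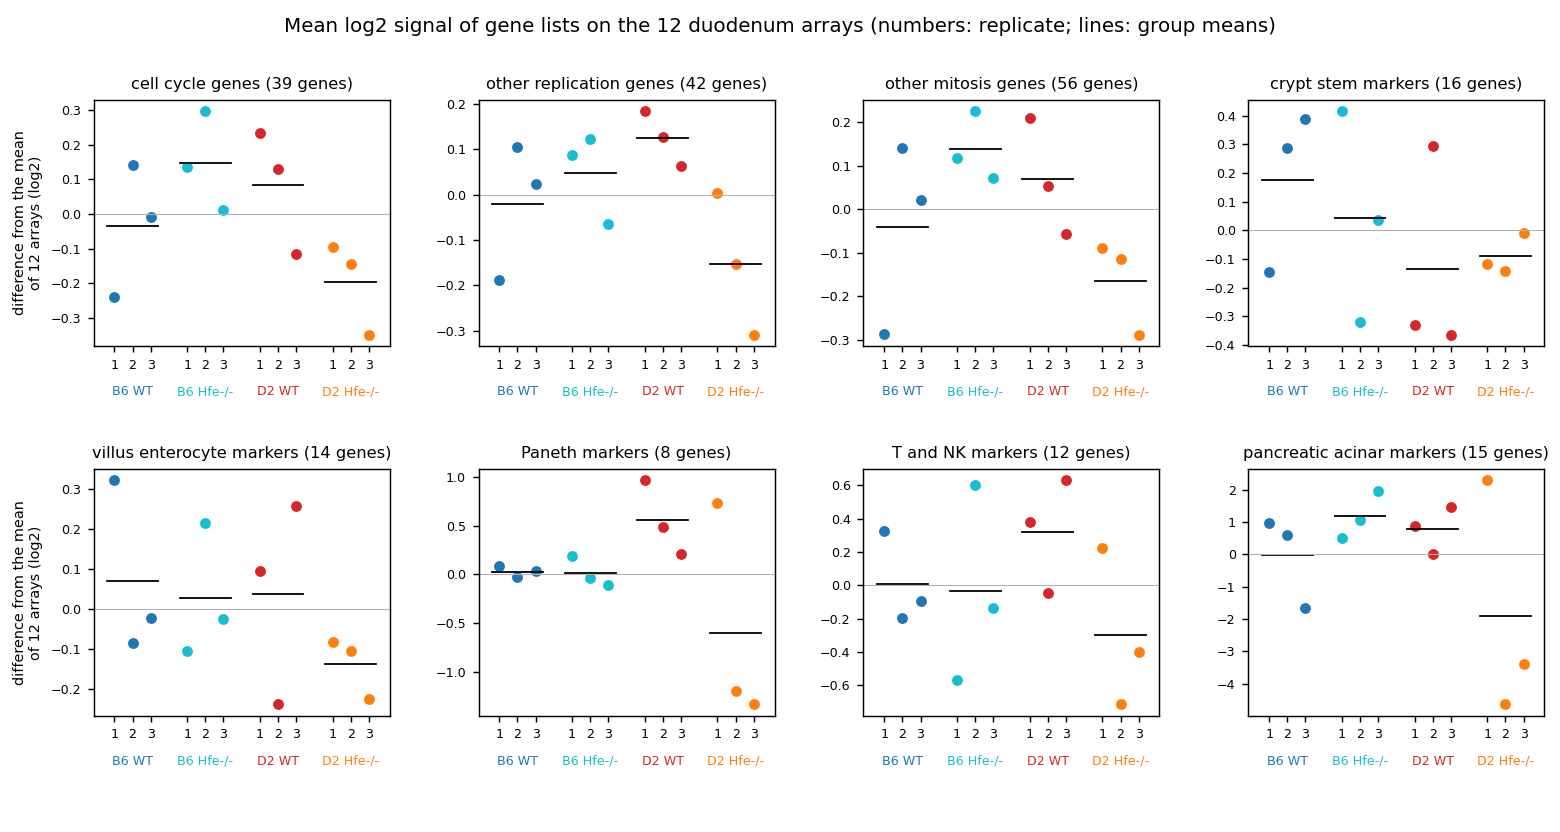
Mean log2 signal of 8 gene lists (every gene with a probe set, also those below the filter) on each of the 12 duodenum arrays, as the difference from the mean of the 12 arrays, with 1 point per mouse, colours for the 4 groups and lines for the group means. The D2 *Hfe*-/- mice are lowest on average for every list drawn except the crypt stem markers. Mice 2 and 3 of that group lie apart for acinar and Paneth markers.

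Other genes of the same processes pointed the same way in the duodenum. Of 54 other genes of mitosis 49 had negative differences in D2 mice (median -0.29) and 45 positive ones in B6 mice (median 0.18). In D2 mice 1 of them passed, *Racgap1*, which acts in cytokinesis (-0.59, SE 0.12, adjusted p = 0.0870). Of 42 other replication genes 38 were negative in D2 (median -0.22, 0 called) and 30 positive in B6 (median 0.08, 0 called). Lists of G1 control and of p53 targets had medians of 0.06 and 0.07 in D2 and of 0.05 and -0.11 in B6. Of 35 further probe sets of 26 of the cell cycle genes, 30 were negative in D2 and 28 positive in B6, with 0 called in either strain. They measure the same genes in the same RNA and add no mice.

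Between the wild-type strains 0 genes differed in the duodenum at an adjusted p of at most 0.01 (limma, 3.37% of all probe sets). At an unadjusted p under 0.05, 4 were higher and 1 was lower in D2 (8.69% and 9.43% of all probe sets). Positive differences (higher in D2) were found for 30 of 39 genes, against 51.2% of all probe sets, with a median of 0.18. *Nusap1* (0.46, SE 0.15, adjusted p = 0.109) and *Aurka* (0.58, SE 0.20, adjusted p = 0.127) were the nearest to a call in that direction, and *Mcm6* (-0.46, SE 0.18, adjusted p = 0.171) in the other. The wild-type duodena of the strains were hybridized in different runs, so that strain and run cannot be told apart among these 6 arrays. This contrast shares its wild-type arrays with the knockout comparisons.

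The correlations between the genes differed in size between the tissues, where 17 of the 39 genes had passed the filter through the duodenum alone and lay mostly below the limit in liver. The median correlation of log2 signals over the 741 gene pairs was 0.51 in duodenum with 598 pairs positive, and -0.0043 in liver with 365 positive. Over the 231 pairs of the 22 genes that passed in both tissues it was 0.45 in duodenum and 0.03 in liver. These are descriptions over 12 arrays of 4 groups that share runs and scaling. *Ube2c* (0.94), *Rrm1* (0.93) and *Cdk1* (0.92) followed the mean of the other genes most closely in the duodenum. *Cdc45* (-0.65), *Tyms* (-0.27) and *Ccne1* (-0.12) did so least, with *Foxm1* at -0.05, *Cdt1* at -0.03 and *Cdkn1a* at 0.17.

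In the liver 0 cell cycle genes were called in the knockout of either strain by limma. In D2 mice 2.75% of all probe sets were called, and at an unadjusted p under 0.05 there were 2 genes higher and 1 lower (6.75% and 6.55% of all probe sets). Positive differences were found for 28 of 39 genes (52.6% of all probe sets), with a median of 0.39 against 0.02. Of the 17 genes that passed the filter through the duodenum alone, 13 were among these, at liver signals near the lower limit. Within the run that held the 3 D2 knockouts and 1 wild-type mouse, the median was 0.01, against -0.01 over all probe sets. There 20 of 39 genes were positive.

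The genes nearest to a call in the D2 liver were *Mcm7*, *Cenpa* and *Ccnd1*. *Mcm7* was 209, 194 and 168 in the wild type and 215, 268 and 289 in the knockout, without overlap (log2 difference 0.43, SE 0.14, adjusted p = 0.152). *Cenpa*, the histone of the centromere, was 28.4, 41.3 and 41.1 against 58.9, 64.6 and 94.4, without overlap (log2 difference 0.97, SE 0.32, adjusted p = 0.165). *Ccnd1* was 135, 128 and 119 against 105, 59.6 and 80.8, lower without overlap (log2 difference -0.67, SE 0.22, adjusted p = 0.173). Without D2 knockout mouse 1, *Mcm7* (0.55, adjusted p = 0.0349) and *Ccnd1* (-0.87, adjusted p = 0.0444) passed, and *Cenpa* passed in 1 omission (adjusted p = 0.0731). With all arrays, 1 of the 3 other probe sets of *Mcm7* (0.79, adjusted p = 0.0283) and 1 of the 2 of *Ccnd1* (-1.06, adjusted p = 0.0243) passed. The remaining ones of *Mcm7* were at 0.18 and 0.12. The other kept probe set of *Cenpa* was at 0.28 (adjusted p = 0.912), with means of 15.3 and 17.0, below the lower limit. Among 42 other replication genes, *Rfc3* (0.91, adjusted p = 0.0962), of the clamp loader, was higher and *Gmnn* (-0.50, adjusted p = 0.0730), the inhibitor of Cdt1, was lower. Among 54 other genes of mitosis *Cks1b* (0.70, adjusted p = 0.00735) and *Stmn1* (0.75, adjusted p = 0.0872) were higher.

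In the B6 liver 1.02% of all probe sets and 0 of the 39 genes were called by limma, with a median of 0.00 and 20 genes positive (49.2% of all probe sets). There 1 gene was higher and 2 were lower at an unadjusted p under 0.05 (5.62% and 5.90% of all probe sets). Within the run that held the 3 wild-type mice and knockout mouse 1, the median was 0.29, against 0.004 over all probe sets. There 26 of 39 genes were positive. *Cdkn1a* was 38.6, 50.2 and 25.7 in the wild type and 52.6, 174 and 120.2 in the knockout (log2 difference 1.49, SE 0.49, adjusted p = 0.239). The groups did not overlap, and the range in the knockout was wide, with the lowest value close to the highest of the wild type. Knockout mice 2 and 3 were hybridized in other runs than the wild type, and within the shared run, with knockout mouse 1 alone, the difference was 0.52. In D2 liver the same gene was 58.3, 59.7 and 22.3 against 40.7, 15.5 and 35.9, groups that overlap. The interaction for *Cdkn1a* was -2.08 (SE 0.69, adjusted p = 0.319), and by limma 0 genes were called in the liver interaction (0.214% of all probe sets), with 3 higher and 3 lower at an unadjusted p under 0.05 (5.13% and 4.61% of all probe sets). *Aurka* (-1.75, adjusted p = 0.280) and *Tyms* (-1.86, adjusted p = 0.346) were below 20 on all B6 liver arrays, so their differences have no measured level behind them.

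Between the wild-type livers 1 gene differed. *Cdt1* was 47.7, 54.5 and 58.3 in B6 and 94.8, 90.2 and 104 in D2 mice, without overlap, a log2 difference of 0.85 (SE 0.17, adjusted p = 0.00441). Of all probe sets, 4.35% differed at this threshold and 1.97% were higher in D2. The knockouts lay close to their strain, at 76.1, 57.5 and 59.4 in B6 and 84.8, 89.3 and 91.7 in D2. In the duodenum the strains did not separate for this gene, with 444 to 475 in wild-type B6 and 458 to 488 in wild-type D2 mice. D2 wild-type mouse 1, hybridized in the run of the B6 wild-type livers but on another fluidics station, had 94.8. The call was lost with run as a block (0.90, adjusted p = 0.0394) and with run and station as a block (1.11, SE 0.38, adjusted p = 0.304). It was also lost when any 1 of the B6 wild-type mice 1 and 2 and the 3 D2 wild-type mice was left out, where the difference stayed between 0.77 and 0.90. The other kept probe set of *Cdt1* was at 0.45 (adjusted p = 0.452). *Rrm2* (-1.20, adjusted p = 0.0437) and *Ccnd1* (0.68, adjusted p = 0.0769) came next. The other probe sets of *Rrm2* were at -1.53 (adjusted p = 0.149) and -1.21 (adjusted p = 0.113). Those of *Ccnd1* disagreed in sign, at 0.31 (adjusted p = 0.467) and -0.33 (adjusted p = 0.359).

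**Figure D4:**
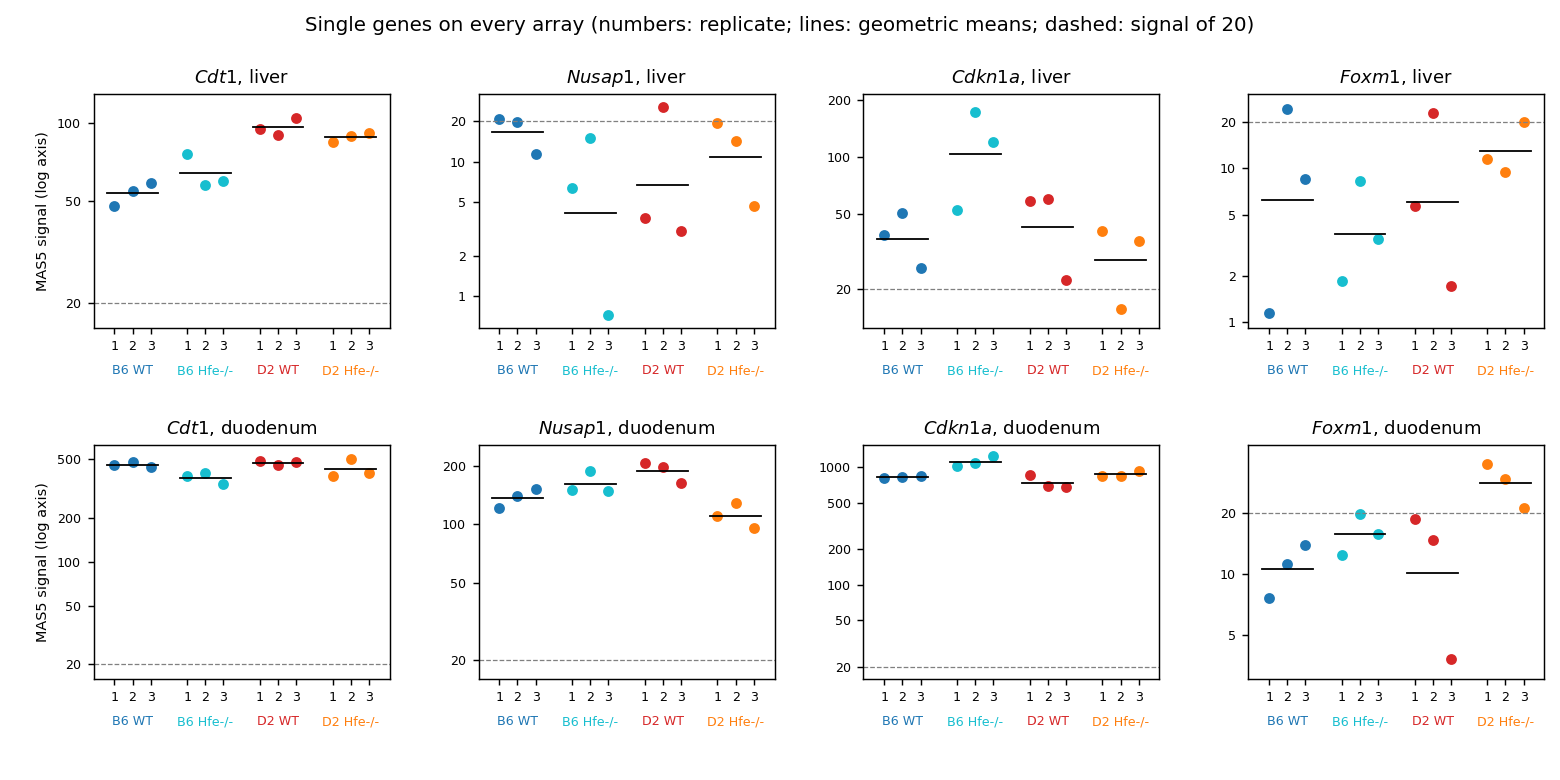
MAS5 signal (log axis) of *Cdt1*, *Nusap1*, *Cdkn1a* and *Foxm1* on every liver array (top) and duodenum array (bottom), with 1 point per mouse, colours for the 4 groups, lines for geometric means and a dashed line at a signal of 20. *Cdt1* separates the strains in liver, where the 6 B6 arrays lie between 47.7 and 76.1 and the 6 D2 arrays between 84.8 and 104, and *Nusap1* separates the D2 genotypes in duodenum.

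Outside the list, *Pttg1*, securin, which holds back separase until anaphase, was lower in wild-type D2 than in B6 liver (-3.73, SE 0.13, adjusted p = 1.46e-10), and lower in D2 duodenum by less (-0.55, SE 0.09, adjusted p = 0.00140). *Stmn1*, a microtubule-destabilizing protein (-1.11, adjusted p = 0.00227), and *Cdkn2c*, an inhibitor of Cdk4 and Cdk6 (-0.73, adjusted p = 0.00851), were also lower in D2 liver. A difference between strains can also come from a sequence variant under a probe, which was not tested.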

How the data were processed

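Liver and duodenum RNA of 12 mice was measured on 24 arrays. The authors made the deposited values, intensity signals on a linear scale, with the MAS5 method (version not given in the sources used here) and scaled the arrays to a common target of 100. The table holds no detection calls, and probe-level data were not used here. Hybridization times and fluidics stations were read from the experiment files, arrays within 30 minutes of each other forming a run. The precision is limited by 3 mice per group. With 3 against 3 arrays there are 20 splits, and an exact permutation p cannot go below 0.1.

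Log2 of the authors' signals was taken here without a pseudocount. Of 45101 probe sets, 64 AFFX controls were left out and 28061 were kept, those whose third-highest value within liver or within duodenum reached 20. limma 3.58.1 (lmFit, eBayes with a mean-variance trend) in R 4.3.3 with data.table (version 1.17.8) was fitted to the 12 arrays of each tissue, and to all 24 for the tissue comparison. SE is the standard error of that fit, and P values were adjusted by Benjamini-Hochberg over all probe sets kept, with calls at 0.1 for knockout and interaction and at 0.01 for strain and tissue. Tables, promoter searches and figures were made in Python 3.11.15 with pandas 2.3.3, numpy 2.4.6 and matplotlib 3.10.9. The fits were tested on simulated data.

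The array annotation gave 1 gene symbol for 34958 probe sets, more than 1 for 932 and no symbol for 9211. The genes, the other gene lists and the marker lists were chosen with earlier results of these data known, so lists are described by counts and medians and no list was tested. All 40 genes could be named. Values per array are given for genes called, otherwise for the 3 with the smallest p, and between tissues for examples of each role. Genes with the largest or smallest tissue difference of a role are not all shown, and *Plk1*, *Bub1b* and *Kif20a* are left out there. Further genes are shown as examples. Of each other list up to 4 genes with the smallest adjusted p could be named. Pairing by replicate number was checked by correlation (-0.203 to 0.116 between groups of a tissue) and was not used. Between liver and duodenum of the same group and number the correlations were -0.0171 to 0.0329. The tissue comparison thus treated the 24 arrays as independent. Alternatives were another pseudocount, normalization, filter, threshold, variance prior, choice of arrays and summary of probe sets, blocks for replicate number, run and station, an acinar covariate, each array left out, and, added after seeing the data, the probe set with the highest mean linear signal.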

Additional observations from a re-analysis of the deposited data

How the results depend on the processing

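In the D2 duodenum the single call, of *Nusap1*, became 0 calls at an adjusted p of 0.05, with only the arrays compared, without the variance trend, with run as a block, with the acinar covariate and without D2 knockout mice 2 and 3 (where the 1 array left was assumed to vary like the other groups), and with run and station as a block the single call was that of *Foxm1*. The *Nusap1* difference stayed negative in all of these. With the replicate number as a block there were also 0 calls (*Nusap1* adjusted p = 0.130), and the block moved no other count of the knockout and strain comparisons. In wild-type liver the single strain call became 0 with run as a block, with run and station as a block and with the mean of all probe sets. It became 2 at an adjusted p of 0.05 (*Cdt1* and *Rrm2*) and with only the arrays compared (*Cdt1* and *Ccnd1*). With a signal of at least 100 there were 0 calls, but that filter left out *Cdt1*, which was not tested there. The D2 liver knockout had 1 call with a signal of at least 100 (*Mcm7*, 3 genes tested) and 1 with the mean of all probe sets (*Ccnd1*), and the B6 liver knockout 1 with the latter (*Mcm7*, adjusted p = 0.0992). Leaving out each array in turn gave 0 to 2 calls in D2 liver, 0 to 0 in B6 liver and in the liver interaction, 0 to 1 between strains in liver, 0 to 1 in D2 duodenum and in the duodenum interaction, 0 to 0 in B6 duodenum and between strains in duodenum, and 31 to 34 (B6) and 31 to 32 (D2) between tissues. Differences between tissues that changed sign were those of *E2f1* with run as a block (-0.41 in B6, -0.66 in D2), with quantile normalization (-0.093 in D2) and with the acinar covariate (-0.28 in D2), of *Cdc45* with the acinar covariate (-0.0112 in D2), and of *Foxm1* with quantile normalization (-0.0583 in B6) and when arrays were left out (-0.438 to 1.76 in B6, lowest without liver B6 wild-type mouse 1, and -0.16 to 1.7 in D2, lowest without liver D2 wild-type mouse 3), all of genes not called. The counts of calls between tissues include the genes that passed the filter through the duodenum alone. Signals near 20 limit what the liver can show. The cause of these changes was not tested.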

Other observations

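With the probe set of the highest mean linear signal in place of the highest mean log2 signal, 5 of the 39 genes changed probe set (*Rrm1*, *Ccna2*, *Foxm1*, *Bub1* and *Kif11*). With this choice 35 genes in B6 and 33 in D2 were higher in wild-type duodenum than in liver, against 26.2% of all probe sets in each strain. The counts include genes that passed the filter through the duodenum alone. In the second probe set of *Foxm1* the log2 difference between tissues was 4.17 in B6 (adjusted p = 2.58e-05) and 1.10 in D2 mice (adjusted p = 0.190). In the third it was 3.91 (adjusted p = 0.00134) and 3.45 (adjusted p = 0.00384). Liver means were below 20 in both, and both had passed the filter through the duodenum alone.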
